A study of Mus musculus with 8 samples.

Results

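Chemokines and colony stimulating factors that endothelium can make to attract and sustain neutrophils and monocytes were followed in sorted lung endothelial cells of HF and LF mice. The members were picked by gene symbol with earlier results of these data known, although no measured value entered the rule, and all 9 had a row among the 34899 genes of the deposited table: Cx3cl1, Cxcl16, Ccl2, Ccl7, Cxcl1, Cxcl2, Csf1, Csf3 and Il6. RNA-seq libraries had been made from CD45-negative, CD31-positive cells of the lungs of female C57BL6 mice, with 4 HF and 4 LF libraries. CD45 is the surface marker shared by leukocytes and CD31 an adhesion molecule of endothelium. The labels name HF and LF without spelling them out and give no age, genotype, treatment or batch, and the series title concerns obesity, oxidants from neutrophils, inflamed vessels and the passage of metastatic cells. The comparison asks how transcript levels of these signals differed between the HF and LF groups.

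Chemokines are small secreted proteins that bind G protein-coupled receptors on leukocytes and direct their movement along and across the vessel wall. Cxcl1 and Cxcl2 act on the receptor Cxcr2 and attract neutrophils, whereas Ccl2 and Ccl7 act on Ccr2 and bring monocytes out of the bone marrow. Cx3cl1 (fractalkine) and Cxcl16 are made as membrane proteins that hold cells with Cx3cr1 or Cxcr6 and can be cut from the surface. Csf1 sustains monocytes and macrophages, Csf3 drives neutrophil production, and Il6 is an inflammatory cytokine that signals through Il6st. Transcription of several of them is induced through the factor NF-kB, and the messages are often short-lived because AU-rich elements in their 3′ UTRs are bound by decay proteins such as Zfp36.

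Both features were found in the sequences of Cxcl1, Cxcl2 and Il6. RefSeq promoter windows (build GRCm38.p6, from 250 bases before to 50 bases after the annotated start) were matched for 5 of the 9 genes, Cx3cl1, Cxcl1, Cxcl2, Csf1 and Il6. The windows of the neutrophil attractants Cxcl1 and Cxcl2 and of Il6 are given 5′ to 3′ along the gene, with matches to the NF-kB consensus on either strand in capitals.
Cxcl1, chr5:90890995-90891294, plus strand: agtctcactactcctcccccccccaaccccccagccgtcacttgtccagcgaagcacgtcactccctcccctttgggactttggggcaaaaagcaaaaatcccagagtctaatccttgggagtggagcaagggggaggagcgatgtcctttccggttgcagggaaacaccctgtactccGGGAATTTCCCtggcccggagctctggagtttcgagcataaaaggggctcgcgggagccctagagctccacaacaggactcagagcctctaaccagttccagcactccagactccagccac
Cxcl2, chr5:90903649-90903948, plus strand: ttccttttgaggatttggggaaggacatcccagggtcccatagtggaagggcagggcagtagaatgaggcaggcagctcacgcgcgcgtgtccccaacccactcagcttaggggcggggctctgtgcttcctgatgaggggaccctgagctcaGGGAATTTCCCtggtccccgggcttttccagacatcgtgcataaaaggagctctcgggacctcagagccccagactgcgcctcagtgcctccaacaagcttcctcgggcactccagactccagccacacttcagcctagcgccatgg
Il6, chr5:30012864-30013163, plus strand: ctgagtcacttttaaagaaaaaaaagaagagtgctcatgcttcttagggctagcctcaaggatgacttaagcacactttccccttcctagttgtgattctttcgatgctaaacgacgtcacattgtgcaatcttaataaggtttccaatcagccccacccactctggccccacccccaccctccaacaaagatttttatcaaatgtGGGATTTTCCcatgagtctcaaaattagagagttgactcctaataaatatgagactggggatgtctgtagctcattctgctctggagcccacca
Cxcl1 and Cxcl2 held the same 11 bases, GGGAATTTCCC, in which overlapping matches on both strands lie, starting 71 and 97 bases before the start site. The Il6 match starts 44 bases before the start site, the Csf1 window held 1 match 154 bases before it, and these letters were not in the Cx3cl1 window. Of all 32851 promoter windows of this length, 8.46% held at least 1 such match. The Il6 window also held 1 match to the AP-1 motif TGANTCA, found in 7.81% of windows, and 1 to the C/EBP motif TTGCNNAA, found in 10.8%, and neither was in the other 4 windows. The CRE motif TGACGTCA was in none of the 5 windows and in 1.79% of all windows. All 4 motifs were searched on both strands, and a match is a description of letters only.

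In the 3′ UTRs of GENCODE M21 transcripts (GRCm38), the AU-rich pentamer ATTTA was frequent in 4 members. Cxcl2 held 11 copies in 734 bases, Cxcl1 held 7 in 592 bases, Csf3 held 6 in 669 bases and Il6 held 6 in 427 bases. Among 3′ UTRs within 10% of the same length, the share with at least as many copies was 0.085% for Cxcl2, 0.544% for Cxcl1, 1.65% for Csf3 and 0.645% for Il6. The other 5 held 1 to 4 copies, which between 20.5% (Ccl7) and 91.7% (Cx3cl1) of UTRs of like length reached. The densest stretch of 30 bases is shown for these 4 members and, for contrast, for Cx3cl1, with ATTTA in capitals.
Cxcl1, chr5:90892606-90892635, plus strand: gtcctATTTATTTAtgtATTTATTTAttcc
Cxcl2, chr5:90905327-90905356, plus strand: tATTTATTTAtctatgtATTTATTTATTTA
Csf3, chr11:98702988-98703017, plus strand: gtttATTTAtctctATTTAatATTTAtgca
Il6, chr5:30019684-30019713, plus strand: atttttaATTTAttgataATTTAaataagt
Cx3cl1, chr8:94780849-94780878, plus strand: ccagtgaacaattATTTAttggattcccag
The longer motif TATTTAT, which overlaps ATTTA, occurred 7 times in Cxcl2, 6 times in Cxcl1, 2 times in Csf3 and once each in Il6, Csf1 and Cx3cl1, and was in 26.5% of the 20734 3′ UTRs examined.

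The libraries held 10631506 to 20781564 reads assigned to genes, and values are the authors' normalised read counts unless stated. Of the 12 endothelial markers examined, the cadherin Cdh5 ranged from 12758 to 13204 in HF and from 9595 to 13029 in LF, and Pecam1, which encodes CD31, from 27351 to 29564 and from 19425 to 33236. The mean log2 value was higher in HF for 11 of the 12 and lower for Erg. Ptprc, which encodes CD45, spanned 90.4 to 248 in HF and 127 to 265 in LF. Among markers of other cells, the 14 monocyte and macrophage markers summed to 4539 to 7601 in HF and 7749 to 10176 in LF. Every HF sum thus lay below every LF sum. Most of each sum was the lysozyme gene Lyz2, at means of 3856 in HF and 5400 in LF. Its own values overlapped, at 2866.5 to 5199.8 in HF and 4600.8 to 6436.4 in LF. Of the 13 tested markers on this list, 0 had groups that did not overlap. The 10 neutrophil markers summed to 85.5 to 244 and 143 to 433. Ly6g was near 0 in both groups, at 0 in all 4 HF libraries and at 2.44, 0, 0 and 1.13 in LF 1 to LF 4. The 10 fibroblast markers summed to 1750 to 3657 and 2754 to 4995, the 10 smooth muscle and pericyte markers to 3317 to 3597 and 4049 to 5636, and the 12 epithelial markers to 10753 to 20121 and 13550 to 29723. In such bulk samples, fewer cells of a type and less RNA per cell cannot be told apart. LF 1 and LF 2 stood apart from the other 6 libraries on the first principal component (36.05% of variance), at -56.4 and -50.9 against -6.79 to 39.6. On the second (17.5%), LF 3 and LF 4 stood apart, at -38.5 and -34.2 against -1.41 to 29.6. Neither pair is taken as the typical one, and results are given with and without each pair of LF libraries. Leaving out a pair keeps the same 4 HF libraries in both fits. The pairs were chosen from these same expression values. Calls and adjusted p-values of those fits therefore describe the LF split and are no separate test of a member.

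Levels per length differed widely among the 9 genes. Per kb of exon, the normalised count averaged 866 for Cx3cl1, 568 for Csf1 and 329 for Cxcl16 over the 8 libraries. Cx3cl1 exceeded Csf1 and Csf1 exceeded Cxcl16 in 8 of 8 libraries, although the ranges of neighbours over libraries overlapped (589 to 1157, 385 to 813 and 233 to 456 per kb). The inducible genes Cxcl1, Il6 and Cxcl2 followed at 64.0, 62.8 and 60.6 per kb, with ranges of 31.8 to 88.7, 16.0 to 127 and 22.1 to 126, so their order was not distinguishable from the spread. Every value of Cxcl16 lay above every value of Cxcl1. Ccl2 and Ccl7 averaged 19.4 and 17.4 per kb with overlapping ranges, and Csf3 averaged 1.33 per kb.

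**Figure D1:**
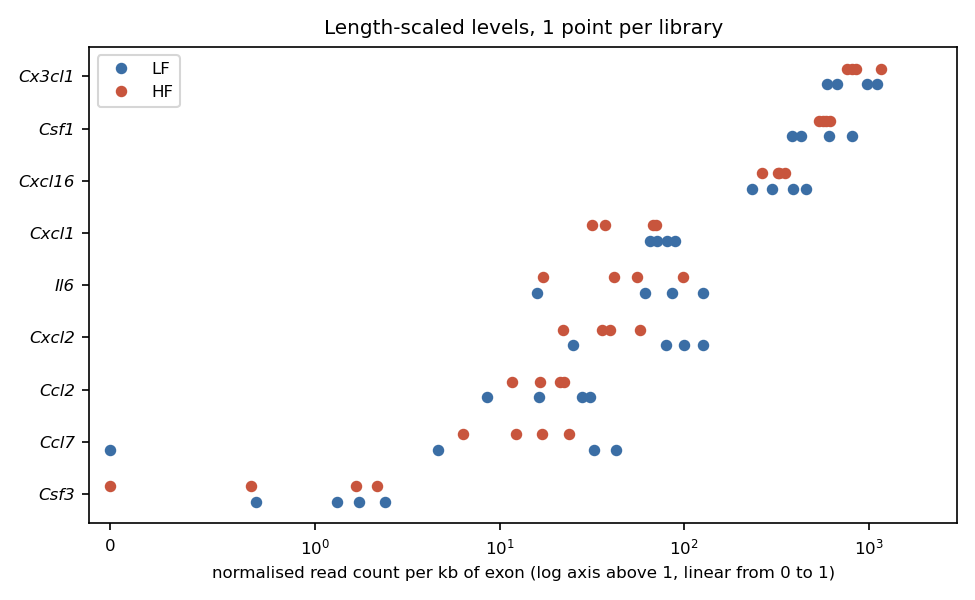
Normalised read count per kb of exon (x axis, logarithmic above 1 and linear from 0 to 1) for each gene (rows, ordered by the mean over 8 libraries), with 1 point per library, LF in blue and HF in red. Cx3cl1, Csf1 and Cxcl16 lie above 200 per kb in every library, Cxcl1, Il6 and Cxcl2 between 16.0 and 127, and Csf3 at 2.40 or below.

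None of the members was called between HF and LF. Of the 9 genes, 8 had 10 or more normalised counts in 4 or more libraries and were tested, and Csf3 was not. limma's moderated test called 0 of the 8 members and 0 of 17067 genes (0%) when p, adjusted by Benjamini and Hochberg's method, had to be under 0.05. At an unadjusted p under 0.05 it gave 1 member, Cxcl1, where 11.0% of all genes tested reached that level, 4.67% with the lower and 6.36% with the higher value in HF. edgeR's quasi-likelihood test called 0 members and 0 genes, with Cxcl2 at an unadjusted p of 0.0199. DESeq2 called 0 members and 313 of the 14420 genes with an adjusted p (2.17%), with Cxcl1 and Cxcl2 at unadjusted p values of 0.0370 and 0.00678. Ccl2 and Ccl7 had no DESeq2 adjusted p and could not be called by it. The mean log2 value was higher in HF for 3 of the 8 members, Cx3cl1, Csf1 and Ccl7, against 53.2% of all genes tested, and the median log2 fold change was -0.088 over the members and 0.023 over all genes. In none of the 8 did the 4 HF values lie wholly above or below the 4 LF values, which 5.43% of genes tested showed, 1.96% with HF below. Folds below divide HF by LF and come, with 95% intervals, from the limma fit to log2(value + 1), a scale that understates the change of genes with low counts.

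**Figure D2:**
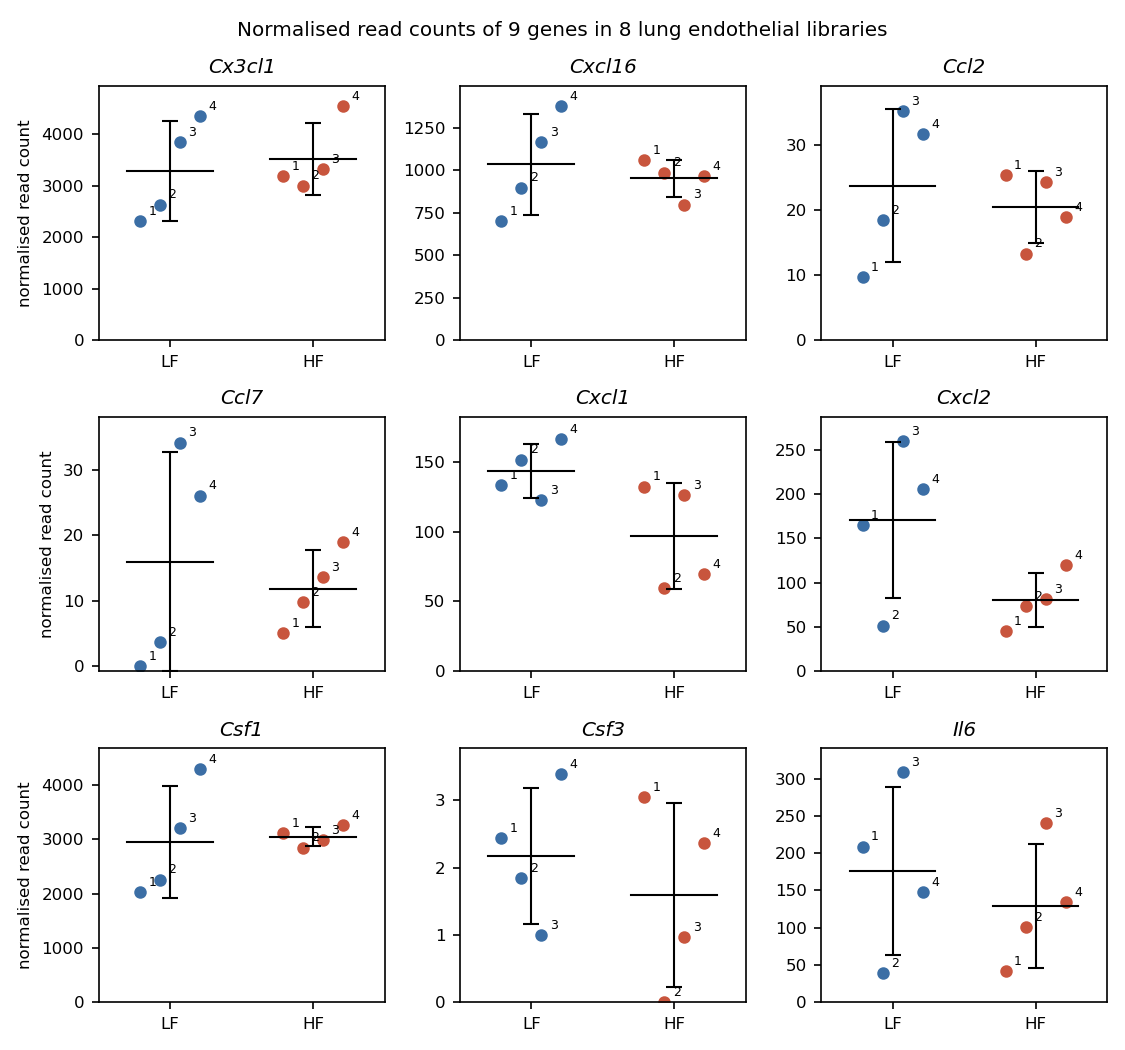
Normalised read count (y axis, not scaled for gene length) of each gene in the 4 LF (blue) and 4 HF (red) libraries, each point labelled with its replicate number, with the group mean and SD in black. For Cxcl2, LF 1, LF 3 and LF 4 lie above the highest HF value of 120, and for Cx3cl1, Csf1 and Ccl7 LF 1 and LF 2 lie below every HF value.

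The neutrophil attractants had the largest differences toward lower values in HF, short of the threshold. Cxcl1 (ENSMUSG00000029380, chromosome 5 from 90891241 to 90893115) was at 132, 59.5, 126 and 69.3 normalised counts in HF 1 to HF 4. The LF 1 to LF 4 values were 133, 151, 122 and 166. HF 2 and HF 4 were thus below all LF libraries, while HF 1 and HF 3 lay within the LF range. The means were 96.8 ± 37.7 in HF and 143 ± 19.4 in LF (SD, n = 4 each), a fold of 0.643 (0.429 to 0.963; limma adjusted p = 0.409). Its log2 fold change of -0.64 was unmoved at -0.64 with the first LF pair (LF 1 and LF 2) left out, was -0.63 with the second (LF 3 and LF 4) left out, and was -0.43 without HF 2 (limma adjusted p = 0.747).

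Cxcl2 (ENSMUSG00000058427, chromosome 5 from 90903871 to 90905938) lies 10755 bases downstream of Cxcl1 on the same strand, and their coding sequences were identical at 78.8% of aligned bases. It was at 45.7, 73.8, 81.6 and 120 in HF 1 to HF 4. In LF 1 to LF 4 it was at 165, 51.7, 260 and 206. Only LF 2 fell within the HF range, and the other 3 LF libraries lay above every HF library. The fold was 0.521 (0.269 to 1.01; limma adjusted p = 0.459). With the first LF pair left out the log2 fold change moved from -0.94 to -1.60 and passed the threshold (limma adjusted p = 0.0163), in a fit where 0.662% of all genes were called lower in HF. That fit drops LF 2, the only LF library within the HF range, so the call follows in part from the choice of libraries. Leaving out the second pair gave -0.28 (limma adjusted p = 0.676). The summed markers of monocytes and macrophages, and of smooth muscle and pericytes, were each lower in every HF library than in any LF library. So was the mesothelial sum (198 to 317 in HF, 337 to 640 in LF), but most of it was Krt19 (184 to 305 and 321 to 602). Msln, at 4.06 to 12.6 in HF and 4.52 to 30.5 in LF, overlapped. Most of the monocyte and macrophage sum was Lyz2, whose own values overlapped between the groups. All 10 fibroblast markers had the lower mean log2 value in HF. By mean count, Dcn (228 in HF, 214 in LF) and Lum (45.1 and 38.4) were higher in HF. The part of these markers in the values of Cxcl2 was not tested.

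The monocyte attractants rested on few reads. Ccl2 (ENSMUSG00000035385, chromosome 11 from 82035571 to 82037453) was at 25.4, 13.3, 24.3 and 18.9 in HF 1 to HF 4. LF 1 to LF 4 held 9.76, 18.5, 35.1 and 31.7. LF libraries held both the lowest and the highest values, and the HF range lay inside the LF range. The fold was 0.937 (0.497 to 1.77; limma adjusted p = 0.940), with a log2 fold change of -0.094 that turned to 0.19 with quantile normalisation. Leaving out the first LF pair gave -0.72 and leaving out the second gave 0.53 (limma adjusted p = 0.484 and 0.417). The gene model Gm17268 overlaps Ccl2 on the other strand, and no source used here says if reads were counted by strand.

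Ccl7 (ENSMUSG00000035373, chromosome 11 from 82045712 to 82047525) lies 8258 bases downstream of Ccl2, and the coding sequences were identical at 72.4% of aligned bases. It was at 5.08, 9.78, 13.6 and 18.9 in HF 1 to HF 4, from 5 to 24 reads. In LF 1 to LF 4 it was at 0, 3.69, 34.1 and 26.0, from 0 to 34 reads, where a count of 0 in LF 1 allows up to 3.66 normalised counts. The LF libraries fell on either side of the whole HF range. The group mean was lower in HF, at 11.8 ± 5.86 against 16.0 ± 16.7 in LF (SD, n = 4 each), whereas the limma log2 fold change was above 0, at 0.52 (limma adjusted p = 0.836). That value depended on the pseudocount, at 0.76 with 0.5 and 0.082 with 5 in place of 1. The edgeR and DESeq2 log2 fold changes were -0.42 and -0.44. The limma value was -1.39 with the first LF pair left out (limma adjusted p = 0.231), and with the second left out it was 2.44 and passed the threshold (limma adjusted p = 0.0421).

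The membrane-bound chemokines differed little between the group means. Cx3cl1 (ENSMUSG00000031778, chromosome 8 from 94772009 to 94782427) was at 3184, 3005, 3331 and 4546 in HF 1 to HF 4. The LF libraries held, from LF 1 to LF 4, 2316, 2636, 3854 and 4353. LF 1 and LF 2 were below every HF library, LF 3 and LF 4 were above 3 of the 4, and HF 4 was the highest of all. The fold was 1.09 (0.803 to 1.48; limma adjusted p = 0.815). The log2 fold change of 0.12 became -0.24 with the first LF pair left out (limma adjusted p = 0.578) and 0.49 with the second left out, where it passed the threshold (limma adjusted p = 0.0415).

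Cxcl16 (ENSMUSG00000018920, chromosome 11 from 70453983 to 70459984), whose membrane form also takes up oxidised lipoprotein, was at 1060, 987, 799 and 967 in HF 1 to HF 4. In LF 1 to LF 4 it was at 703, 900, 1166 and 1379. The HF values sat inside the LF range, with LF 3 and LF 4 above all of them. The fold was 0.944 (0.710 to 1.26; limma adjusted p = 0.872), with log2 fold changes of -0.42 when the first and 0.25 when the second LF pair was left out (limma adjusted p = 0.138 and 0.215). Zmynd15 overlaps it on the other strand.

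Csf1 was the most even of the members among the HF libraries. Csf1 (ENSMUSG00000014599, chromosome 3 from 107741048 to 107760469) was at 3104, 2842, 2983 and 3262 in HF 1 to HF 4, a coefficient of variation of 5.86%, where the median of all genes tested was 14.3%. In LF 1 to LF 4 it was at 2031, 2257, 3208 and 4292, a coefficient of variation of 35.0% against a median of 22.5%. LF 1 and LF 2 lay below the whole HF range and LF 4 above it. The fold was 1.08 (0.799 to 1.46; limma adjusted p = 0.836). The log2 fold change of 0.11 became -0.29 with the first LF pair left out (limma adjusted p = 0.327) and 0.51 with the second left out, past the threshold (limma adjusted p = 0.00884).

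Csf3, the neutrophil growth factor (ENSMUSG00000038067, chromosome 11 from 98701263 to 98703629), was held at 3, 0, 1 and 3 reads in HF 1 to HF 4 and at 2, 2, 1 and 3 reads in LF 1 to LF 4. A difference was not detectable at this depth, since all 8 values lay at or under the 3 reads that a count of 0 allows. The untested difference of mean log2 values was -0.42.

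Il6 (ENSMUSG00000025746, chromosome 5 from 30013114 to 30019981) varied most within both groups among the members at over 100 normalised counts on average. It was at 41.7, 101, 240.0 and 134 in HF 1 to HF 4, and at 209, 38.8, 308 and 148 in LF 1 to LF 4. HF 1 and LF 2 were low and LF 3 was the highest, and the groups overlapped over nearly their whole range. The coefficients of variation were 64.3% in HF and 64.1% in LF. The fold was 0.779 (0.317 to 1.92; limma adjusted p = 0.820), and the log2 fold change of -0.36 became -0.98 when the first and 0.26 when the second LF pair was left out (limma adjusted p = 0.483 and 0.808).

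**Figure D3:**
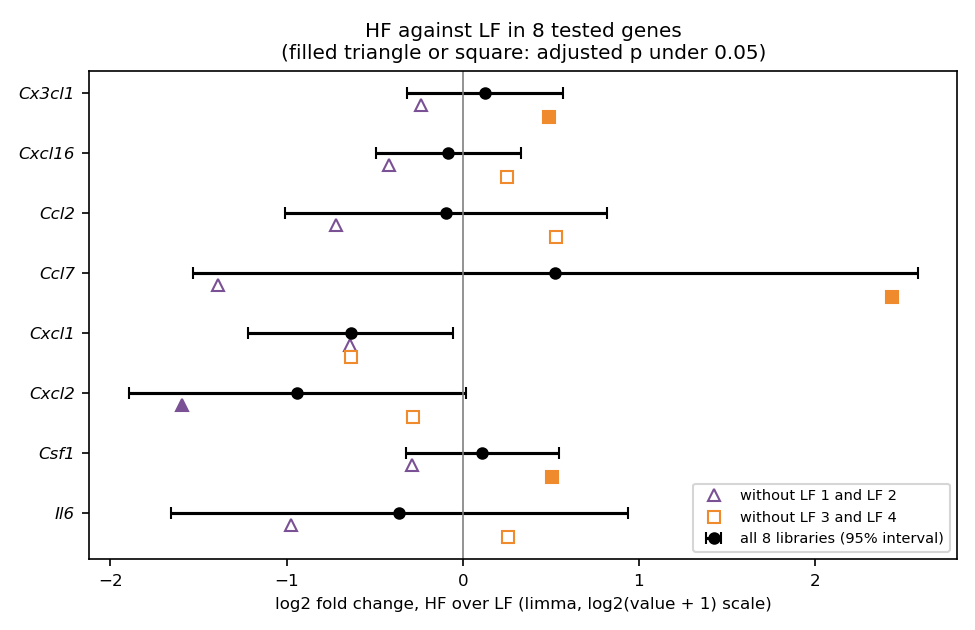
Log2 fold change of HF over LF (x axis, limma, log2(value + 1) scale) for the 8 tested genes (rows), with all 8 libraries as black points with 95% intervals, without LF 1 and LF 2 as triangles and without LF 3 and LF 4 as squares, filled where the adjusted p was under 0.05. Cxcl1 stays near -0.64 in all 3 fits, whereas Cx3cl1, Csf1 and Ccl7 lie below 0 without LF 1 and LF 2 and above 0 without LF 3 and LF 4.

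The LF pairs lay on opposite sides of HF for most members. When LF 1 and LF 2 were set aside, limma called 1 of the 8 members, Cxcl2, lower in HF, and all 8 had log2 fold changes below 0. In that fit 3.76% of all genes were called, 3.09% of all genes with the higher value in HF. When LF 3 and LF 4 were set aside it called 3 members, Cx3cl1, Ccl7 and Csf1, higher in HF, in a fit where 20.0% of all genes were called, 14.0% higher and 6.02% lower. The mean of LF 3 and LF 4 over that of LF 1 and LF 2 was 1.66 for Cx3cl1, 1.75 for Csf1, 1.59 for Cxcl16, 2.37 for Ccl2, 2.15 for Cxcl2 and 1.84 for Il6, where the median of all genes tested was 0.998. For Cxcl1 it was 1.01. The 12 endothelial markers summed to 169340 and 184190 in LF 1 and LF 2. In LF 3 and LF 4 they summed to 226680 and 254700, against 217260 to 248770 in HF. Erg, on the same list, was instead highest in LF 1 and LF 2, at 1044 and 1034. It was at 850 and 845 in LF 3 and LF 4 and at 600 to 771 in HF. The part of these markers in the result was not tested. LF 3 and LF 4 each held the highest value for 4 of the 9 genes, and LF 1 held the lowest value for 5.

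Across the 8 libraries the members did not follow a single order. Cx3cl1, Csf1, Cxcl16, Ccl2 and Ccl7 were all below their gene means in LF 1 and LF 2 and above them in LF 3 and LF 4. Cxcl1 had its lowest values in HF 2 and HF 4. Cxcl2 and Il6 had their lowest values in HF 1 and LF 2 and their highest in LF 3. The macrophage chemokines Ccl3 and Ccl4, chosen after their values were seen, also had their lowest values in HF 1 and LF 2 and their highest in LF 3. The libraries in between were ordered differently for Cxcl2 and Ccl3. Ccl3 had 69.1 normalised counts in HF 1, 122 in LF 2 and 1199 in LF 3, and Ccl4 had 73.2, 125 and 1375 in the same libraries. Over the other 5 libraries Ccl3 ranged from 308 to 741.

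**Figure D4:**
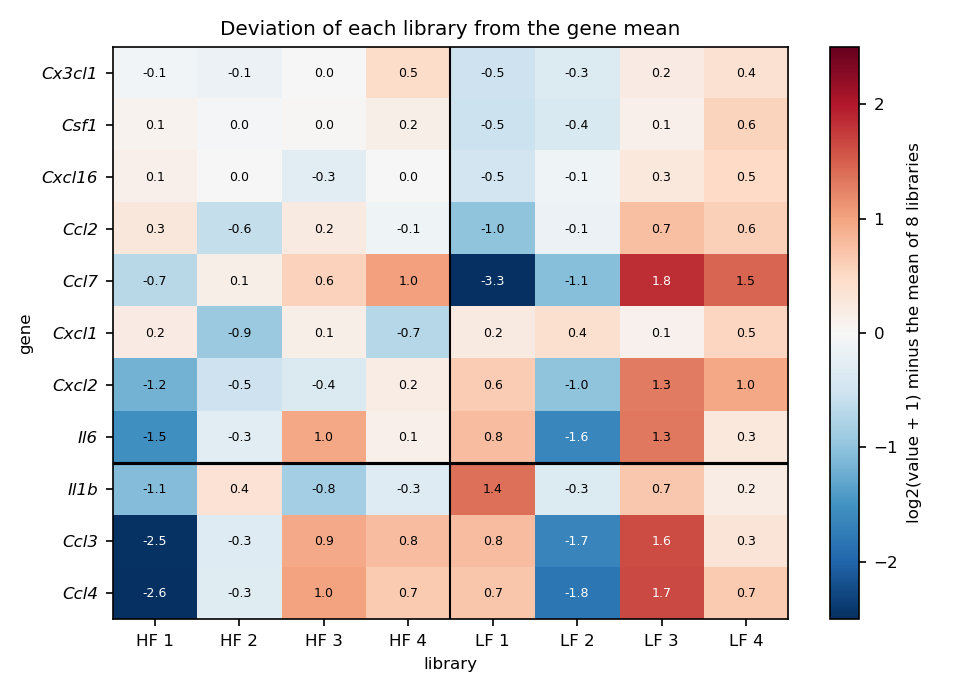
Deviation of log2(value + 1) in each library (columns) from the gene's mean over the 8 libraries, for the 8 tested members (rows above the line) and for Il1b, Ccl3 and Ccl4 (below it), with red above and blue below the mean. HF 1 and LF 2 are low for Il6, Cxcl2, Ccl3 and Ccl4, and LF 3 is high for each of these.

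Among all genes tested, those whose log2 values were most like a member over the 8 libraries were Sp2 for Csf1 (Pearson r = 0.994), Sirt2 for Cx3cl1 (0.983), 9930111J21Rik1 and Trim30a for Cxcl16 (0.983 and 0.981), Lamtor4 for Cxcl2 (0.978) and Cisd3 for Il6 (0.971). Each is the highest value among all genes tested over only 8 libraries that share the LF split, and is given as a description.

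Other chemokine ligands were not called either. For this list and those below, 53.2% of all genes tested had the higher mean log2 value in HF. At a limma unadjusted p under 0.05 stood 11.0%, and in 5.43% the groups did not overlap. Of 8 tested CXC ligands beside the members, 3 had the higher mean log2 value in HF. The limma, edgeR and DESeq2 tests each called 0 of these ligands. With limma, 0 had an unadjusted p under 0.05, whereas with edgeR Cxcl10 did. Cxcl12, the constitutive ligand of Cxcr4, was at 5633 to 7318 in HF and 4597 to 6677 in LF, a fold of 1.12 (0.900 to 1.39; limma adjusted p = 0.684). Cxcl10, an interferon-induced attractant of T cells, was at 196 ± 70.2 in HF and 361 ± 230 in LF (SD, n = 4 each; limma adjusted p = 0.559). All 8 tested CC ligands beside the members had the lower mean log2 value in HF. Their median log2 fold change was -0.63, and limma, edgeR and DESeq2 each called 0 of them. With limma, 0 had an unadjusted p under 0.05, whereas with edgeR Ccl6 did. Ccl6, made by myeloid cells, was at 404 ± 158 and 697 ± 312 (SD, n = 4 each; limma adjusted p = 0.508). The summed markers of monocytes and macrophages and of smooth muscle and pericytes were lower in HF too, as was Krt19 of the mesothelial list. Lyz2, which made up most of the monocyte and macrophage sum, overlapped between the groups. What part these markers had in the result was not tested.

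Of 15 tested growth factors and cytokines, 6 had the higher mean log2 value in HF and limma called 0, as did edgeR and DESeq2, and 1 had an unadjusted p under 0.05. That gene was Il1b, the inflammasome-processed cytokine that induces many of the members, at 152 ± 71.3 in HF and 301 ± 155 in LF (SD, n = 4 each), a fold of 0.515 (limma adjusted p = 0.362). Il34, the other ligand of Csf1r, was at 106 ± 36.3 and 141 ± 30.7 (limma adjusted p = 0.550). Kitl, the stem cell factor, was at 6538 to 8025 in HF and 6036 to 8674 in LF (limma adjusted p = 0.888).

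Receptors of the members, most of them carried by leukocytes, were not called. Of the 12 listed, 9 were tested, 7 of them with the lower mean log2 value in HF. limma called 0, with 2 at an unadjusted p under 0.05, Cxcr6 and Il6ra, and edgeR and DESeq2 called 0. Cxcr6, the receptor of Cxcl16, averaged 12.1 ± 7.57 in HF against 31.1 ± 14.2 in LF (SD, n = 4 each; limma adjusted p = 0.367). Il6ra, the binding chain for Il6, was at 80.3 to 121 in HF, at 251 and 210 in LF 1 and LF 2 and at 100.4 and 112 in LF 3 and LF 4 (limma adjusted p = 0.433), so the second LF pair lay within the HF range. Il6st, the shared signalling chain that endothelium also carries, was at 11683 to 13765 in HF and 7863 to 15476 in LF (limma adjusted p = 0.744).

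Atypical receptors take up chemokines without classical signalling. The 4 tested genes had the higher mean log2 value in HF and limma called 0, as did edgeR and DESeq2, and 1 had an unadjusted p under 0.05. Ackr4 was at 1205 ± 143 in HF and 911 ± 166 in LF (SD, n = 4 each), a fold of 1.33 (limma adjusted p = 0.332). Ackr2 and Ackr3 had folds of 1.41 and 1.31 (limma adjusted p = 0.525 and 0.578), and LF 1 and LF 2 were below every HF library for both. Ackr1, a scavenger of venular endothelium, stood at 0.889 to 7.09 in HF and at 0 to 8.54 in LF and was not tested.

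The 6 genes listed for the release of Cx3cl1 and Cxcl16 from the surface were shedding proteases, their partners and the inhibitor Timp3. Of these, 5 had the higher mean log2 value in HF, all but Timp3. limma called 0, as did edgeR and DESeq2, and 0 had an unadjusted p under 0.05. Adam10 averaged 2949 ± 426 in HF against 2710 ± 576 in LF, and Adam17 1752 ± 227 and 1655 ± 490 (SD, n = 4 each; limma adjusted p = 0.755 and 0.812). Of 16 receptors and adaptors upstream of NF-kB, 13 had the higher mean log2 value in HF, against 53.2% of all genes tested. With limma, 1 had an unadjusted p under 0.05, the tumour necrosis factor receptor Tnfrsf1b at 558 ± 16.3 and 426 ± 102 (limma adjusted p = 0.385). All of limma, edgeR and DESeq2 called 0.

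Among genes that act on AU-rich messages, DESeq2 called some that limma and edgeR did not. The 11 genes listed were decay and stability factors and Nfkbiz, a regulator of NF-kB. Of these, limma called 0, with 3 at an unadjusted p under 0.05, all with the higher value in HF. edgeR called 0 and DESeq2 called 2, Elavl1 and Zfp36l2. Over all genes, 6.36% had such a limma p with the higher value in HF, and DESeq2 called 2.17% of those with an adjusted p. The list was chosen with earlier results of these data known. Elavl1, which binds and stabilises AU-rich messages, was at 1250, 1559, 1889 and 2141 in HF 1 to HF 4. LF 1 to LF 4 held 1232, 893, 671 and 688, so every HF value lay above every LF value (fold 1.98; limma adjusted p = 0.162; DESeq2 adjusted p = 0.00777). Zfp36l2, a decay factor, was at 1184 ± 251 and 704 ± 156 (SD, n = 4 each; limma adjusted p = 0.170; DESeq2 adjusted p = 0.0286), with groups that did not overlap. Zfp36 itself was at 14728 to 17605 in HF and 10641 to 17970 in LF (limma adjusted p = 0.623).

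Of 11 genes in the response to Il6 and colony stimulating factors, 9 had the higher mean log2 value in HF, against 53.2% of all genes tested. limma called 0, with 2 higher and 1 lower at an unadjusted p under 0.05, edgeR called 0 and DESeq2 called 2, Cebpd and Bcl3. Cebpd, a C/EBP transcription factor that glucocorticoids also induce, was at 5574 to 8728 in HF and 2323 to 4847 in LF, a fold of 2.04 with groups that did not overlap (limma adjusted p = 0.163; DESeq2 adjusted p = 0.0164). Socs3, the feedback inhibitor of Il6 signalling, was at 19806 ± 1764 and 15309 ± 4919 (SD, n = 4 each; limma adjusted p = 0.480). Immediate early genes can be induced by tissue dissociation, as can Cxcl1, Cxcl2 and Il6. Of 17 listed, 15 had the higher mean log2 value in HF, against 53.2% of all genes tested. Fewer of the 17 did by mean count. With limma, 2 had an unadjusted p under 0.05. limma and edgeR called 0 of these genes and DESeq2 called 1. That gene was Dusp1, at 29697 to 33225 in HF and 17580 to 25352 in LF (limma adjusted p = 0.209; DESeq2 adjusted p = 0.00974). The list summed to 218090 to 243190 in HF and 169760 to 250300 in LF, so the groups overlapped. Its part in the values of Cxcl1 and Cxcl2 was not tested.

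The authors' deposited table, made with their own comparison of HF over LF, lists Cxcl2 at a log2 fold change of -1.08 with a standard error of 0.400 and an adjusted p of 0.148. The authors' deposited table gives Cxcl1 as -0.57 with an adjusted p of 0.358. The other members with an adjusted p in the authors' deposited table had values from 0.841 to 0.945, and Ccl7 and Csf3 had none.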

How the data were processed

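Sorted lung endothelium was profiled by RNA-seq in 4 HF and 4 LF libraries. Per the labels' protocols, RNA came from TRIzol LS and the library kit was SMART-Seq. The submitters' processing notes name the tools STAR 2.6.1b, featureCounts 2.0.0 and DESeq2 1.24.0 but not their order, and no source used here names the genome build, annotation or strand setting. The deposited values are normalised counts, a signal not scaled for gene length. Beside them the authors gave a log2 fold change and its standard error, a Wald score and p-values, raw and adjusted, per the file headers. Dividing by the smallest step of each library returned whole reads for 100% of values (tolerance 0.01 reads), and these reads went into edgeR and DESeq2. All 34899 gene IDs matched GENCODE M21, the source of positions and exon lengths, and 0 value columns lacked a sample.

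The main test was limma 3.58.1 (trend, two-sided, no covariates) on log2(normalised count + 1), over 17067 genes holding 10 or more normalised counts in 4 or more libraries, with p adjusted over all of them. Alternatives were edgeR 4.0.16 (quasi-likelihood, TMM), DESeq2 1.42.0, pseudocounts of 0.5 and 5, unfiltered genes, genes averaging 50 or more, quantile or TMM scaling, a replicate block, a threshold of 0.10 and left-out libraries. The fits were tested on simulated data. Any 2 libraries differed by more than sampling noise (chi-square per degree of freedom 9.06 to 45.2). The labels do not say how mice map to cell preparations, so p-values measure the spread between these libraries, and floors cover counting error only.

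Members and gene lists were chosen with earlier results of these data known, and the rule for members uses symbols only. All members are named, with up to 4 genes of smallest p per list, up to 3 of highest mean per marker list, and 7 genes always given. Zfp36, Socs3, Il6st, Ccl3, Ccl4, Ly6g, Erg, Dcn, Lum, Timp3 and Nfkbiz fall outside this rule and were chosen after their values were seen. For 3′ UTRs, 1 coding transcript per gene was used.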

Additional observations from a re-analysis of the deposited data

How the results depend on the processing

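Over the settings run, 127 values of the tested members kept their direction and side of the threshold, 19 reversed and 4 passed the threshold without reversing. Cxcl1 and Cxcl2 were lower in HF in every setting run. Ccl7 was -0.42 with edgeR, -0.44 with DESeq2, 0.76 with a pseudocount of 0.5 and 0.082 with 5, and Ccl2 was 0.19 with quantile normalisation. Without LF replicates 1 and 2, Cx3cl1 was -0.24, Ccl7 -1.39, Csf1 -0.29 and Cxcl2 -1.60, with 1 member and 641 genes called and 0 members with the higher mean log2 value in HF. Without LF replicates 3 and 4, Cx3cl1 was 0.49, Ccl2 0.53, Ccl7 2.44, Cxcl16 0.25, Csf1 0.51 and Il6 0.26, with 3 members and 3421 genes called and 6 members higher in HF. These fits have fewer samples, picked from the same values, and the cause was not tested. DESeq2 called 313 genes, 227 higher and 86 lower, and no filter gave 1 gene, with Csf3 at -0.42 (limma adjusted p = 0.769). Leaving out each library in turn gave 0 to 1 genes and 0 members called, 0 to 5 members higher in HF, and log2 fold changes of -0.81 to -0.43 for Cxcl1, -1.43 to -0.66 for Cxcl2, -0.028 to 0.28 for Cx3cl1, -0.25 to 0.070 for Cxcl16, -0.44 to 0.14 for Ccl2, -0.49 to 1.23 for Ccl7, -0.046 to 0.31 for Csf1 and -0.96 to 0.092 for Il6. The sign turned without LF 1 for Cx3cl1, Ccl7 and Csf1, without HF 4 for Cx3cl1, without LF 4 for Cxcl16 and Ccl2, without HF 2 or LF 3 for Ccl2, and without HF 1 or LF 3 for Il6. At an adjusted p under 0.10, limma called 0 genes.

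Nothing in the labels says that replicate numbers pair the libraries. Same-numbered deviations correlated at 0.11, -0.22, -0.14 and 0.18, which cannot exclude a pairing. With the replicate number as a block, 0 genes and 0 members were called, with Cxcl1 at -0.64 (limma adjusted p = 0.471) and Cxcl2 at -0.94 (limma adjusted p = 0.423), and it changed no other call. Depth limits Csf3, Ccl7 and Ccl2.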
